A study of Mus musculus with 12 samples.

Results

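Class 3 semaphorins and their neuropilin receptors were examined in sorted mouse skin fibroblasts from normal, inflamed and tumour-associated skin. The set held 9 of the 18193 genes measured, Sema3a, Sema3b, Sema3c, Sema3d, Sema3e, Sema3f, Sema3g, Nrp1 and Nrp2. A gene was taken from every probe set that the array annotation paired with its symbol alone, 26 probe sets in all, and its main value came from the probe set whose mean over all 12 arrays was highest. The set was chosen by the Sema3g levels, which were higher in both transgenic groups than in normal skin. Those 2 differences are therefore given as a description, without a test, while the other 8 genes were included by family name.

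All 3 groups were cells of back skin from male mice 7 weeks old. All of these carried the PDGFRα-H2B-eGFP allele, and green fluorescent nuclei of Pdgfra-expressing cells were the basis of the sort. The normal group was wild-type apart from that reporter. The inflamed group came from InvEE mice, in which an activated form of the kinase MEK1 is driven by the involucrin promoter, a promoter of differentiating keratinocytes and not of fibroblasts. The tumour-associated group came from skin of InvEE mice with papillomas. Each group had 4 arrays, and the labels do not say whether these came from separate animals, so p-values measure the spread between samples, which may be partly technical. The cells were sorted in bulk, and fewer cells of a type cannot be told apart from less RNA per cell.

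Class 3 semaphorins are secreted guidance proteins that furin-like proteases cleave. Most of them bind a neuropilin, which has no signalling enzyme of its own, and act through a plexin that the neuropilin holds, while Sema3e binds the plexin Plxnd1 directly. Neuropilins also bind VEGF, the main growth factor of blood vessels. In skin, Sema3a is best known for repelling sensory nerve fibres, and Sema3g for its expression in blood vessels.

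Fibroblast markers gave signal in every group, and so did some markers of other cell types. Of 8 fibroblast markers, 7 were measured and none was dim in any group, dim meaning a mean log2 level under 6.16, below which 40% of probe sets lay. By that rule none of 8 pericyte markers was dim in any group either. In normal, inflamed and tumour-associated cells 5, 1 and 2 of 10 keratinocyte markers were dim, and 2, 0 and 4 of 10 dermal papilla markers. Pdgfra stood at 9.94 ± 0.49 in normal cells, 10.62 ± 0.22 in inflamed cells and 10.87 ± 0.35 in tumour-associated cells (log2 level, SD, n = 4). Of 12 endothelial markers, 6, 6 and 5 were dim in normal, inflamed and tumour-associated cells, and none passed the limma test in any comparison, against 3, 2 and 2 with an unadjusted p under 0.05 in the inflamed, the tumour-associated and the direct comparison. Of all 18193 genes, 2837, 4075 and 4816 had such a p in the same order. The log2 of the summed keratinocyte markers was 10.12 to 10.49 in normal, 11.51 to 12.75 in inflamed and 10.38 to 12.28 in tumour-associated arrays. That of pericyte markers was 11.95 to 12.06, 10.90 to 11.34 and 10.17 to 10.81 in the same order, and that of macrophage markers 11.88 to 12.19, 10.38 to 11.57 and 10.54 to 11.16. That of dermal papilla markers was 10.43 to 12.07, 13.00 to 14.88 and 10.18 to 11.06. In inflamed against normal cells all 10 dermal papilla markers were higher without overlap, by a median of 2.17 on the log2 scale, and had an unadjusted p under 0.05, although 0 passed by limma. Probe sets for added poly-A control RNA averaged 9.24 to 12.24 in normal, 7.76 to 8.60 in inflamed and 9.78 to 12.50 in tumour-associated arrays. The difference between Gapdh 3′ and 5′ probe sets, which grows as RNA gets shorter, was 1.59 to 2.28, 1.62 to 3.37 and 2.29 to 3.76. These quantities moved with the groups, and their part in the results that follow was not tested, apart from the fits with the control RNA as a covariate or without the arrays of largest Gapdh difference.

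Promoter windows from RefSeq (mouse build GRCm38.p6, 250 bases before to 50 after a start) matched 7 of the 9 genes, and Sema3b and Sema3f are named only. The 3 printed here belong to Sema3g, the gene that gave the set its reason, to Sema3a, which differed between the transgenic groups, and to Nrp2, whose probe sets were lower in tumour-associated cells. They lie on the plus strand at chr14:31217623-31217922, chr5:13396534-13396833 and chr1:62703067-62703366. Capitals mark GC boxes (GGGCGG on either strand), and overlapping matches are counted apart.
Sema3g: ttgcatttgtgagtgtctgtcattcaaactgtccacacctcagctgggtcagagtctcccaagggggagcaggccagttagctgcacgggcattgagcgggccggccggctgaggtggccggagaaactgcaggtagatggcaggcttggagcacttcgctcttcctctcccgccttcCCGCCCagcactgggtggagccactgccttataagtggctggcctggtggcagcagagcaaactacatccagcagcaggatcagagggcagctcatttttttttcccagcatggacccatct
Sema3a: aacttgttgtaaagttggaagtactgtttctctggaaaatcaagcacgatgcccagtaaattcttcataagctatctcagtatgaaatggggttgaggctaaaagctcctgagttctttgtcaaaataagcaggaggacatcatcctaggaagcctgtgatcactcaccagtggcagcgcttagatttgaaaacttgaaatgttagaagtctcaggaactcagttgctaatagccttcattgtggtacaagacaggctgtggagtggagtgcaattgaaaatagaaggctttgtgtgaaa
Nrp2: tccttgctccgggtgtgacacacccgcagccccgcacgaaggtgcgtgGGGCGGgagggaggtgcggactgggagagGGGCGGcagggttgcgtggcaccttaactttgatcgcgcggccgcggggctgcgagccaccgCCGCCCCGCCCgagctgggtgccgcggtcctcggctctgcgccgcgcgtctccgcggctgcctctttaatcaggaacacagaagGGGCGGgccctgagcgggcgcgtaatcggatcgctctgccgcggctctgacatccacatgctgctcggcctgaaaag
The Sema3g window held 8 CpG sites and 1 GC box, with a GC content of 58.7%. The Sema3a window held 2 CpG sites and no GC box, with a GC content of 41.3%. The Nrp2 window was the richest of the 3, with 37 CpG sites, 5 GC boxes and a GC content of 70.7%. Over all 32851 windows of this length the median was 7 CpG sites and 52.7% GC, and 35.7% held a GC box, which was in 5 of the 7 windows of the set. The AP-1 motif TGANTCA, searched on both strands, was in 0 of the 7 windows and in 7.81% of all windows. The TATA box TATAAA was likewise in 0 of the 7, against 13.6% of all, and the E-box CACGTG in 1 of the 7, that of Sema3e, against 7.15%. A missing match says only that these letters are not in the window.

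Sema3g, a ligand that binds Nrp2, was higher in fibroblasts of both transgenic groups than in normal ones. It was read by 1 probe set, 1435361_at. Its log2 levels were 7.15, 8.0, 7.00 and 5.63 in the normal arrays. They were 9.06, 9.57, 9.86 and 8.55 in the inflamed arrays. They were 9.06, 8.90, 9.64 and 9.10 in the tumour-associated arrays. Every array of either transgenic group was above every normal array, and the normal arrays were spread the most, array 4 being the lowest and dim. The group means were 6.94 ± 0.98, 9.26 ± 0.58 and 9.18 ± 0.32 (SD, n = 4). The inflamed mean was higher than the normal mean by 2.32 ± 0.43 on the log2 scale (SE, 95% interval 1.38 to 3.25), a 4.98-fold difference. The tumour-associated mean was higher by 2.23 ± 0.43 (1.29 to 3.17), or 4.69-fold. These values chose the gene, so the 2 intervals only describe the spread and cannot be read as a test. Both differences share the normal arrays.

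Between the transgenic groups Sema3g differed little. The tumour-associated mean was below the inflamed mean by 0.08 on the log2 scale, a difference of -0.08 ± 0.43 (SE, 95% interval -1.02 to 0.85) with an adjusted p of 0.915 in the limma fit. The interval reaches well to both sides of 0, so the levels are not shown to be equal. Sema3g was chosen for higher levels in both of these groups, so this p-value is not free of that choice. In order of level, the inflamed and tumour-associated groups were neighbours that did not differ beyond their spread, and the normal group was the lowest. Without normal array 4, the differences against normal were 1.88 and 1.79 in the inflamed and tumour-associated groups. With the poly-A control level as a covariate, the inflamed difference was 1.48, over 1.5 times smaller. Summed endothelial markers overlapped between the normal (10.34 to 10.71) and tumour-associated (10.14 to 10.80) arrays and were slightly higher in the inflamed arrays (10.75 to 10.91). The endothelial genes Pecam1 and Cdh5 had mean levels of 6.43 and 6.03 in normal, 6.50 and 6.27 in inflamed, and 6.59 and 6.36 in tumour-associated cells. Tek, a receptor of endothelial cells, had means of 4.27, 5.73 and 6.14 in the same order, and Ramp2 had 8.86, 9.86 and 7.99, both named after their values were seen. Tek differed from normal by 1.46 in inflamed and 1.87 in tumour-associated cells (adjusted p = 0.367 and 0.155 by limma). It was dim in all 3 groups and ran from 4.26 to 8.39 in the tumour-associated arrays. Of the 12 endothelial markers, 7 were higher and 5 lower than normal in inflamed cells, and likewise 7 and 5 in tumour-associated cells. The part of endothelial cells in the Sema3g values was not tested.

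**Figure D1:**
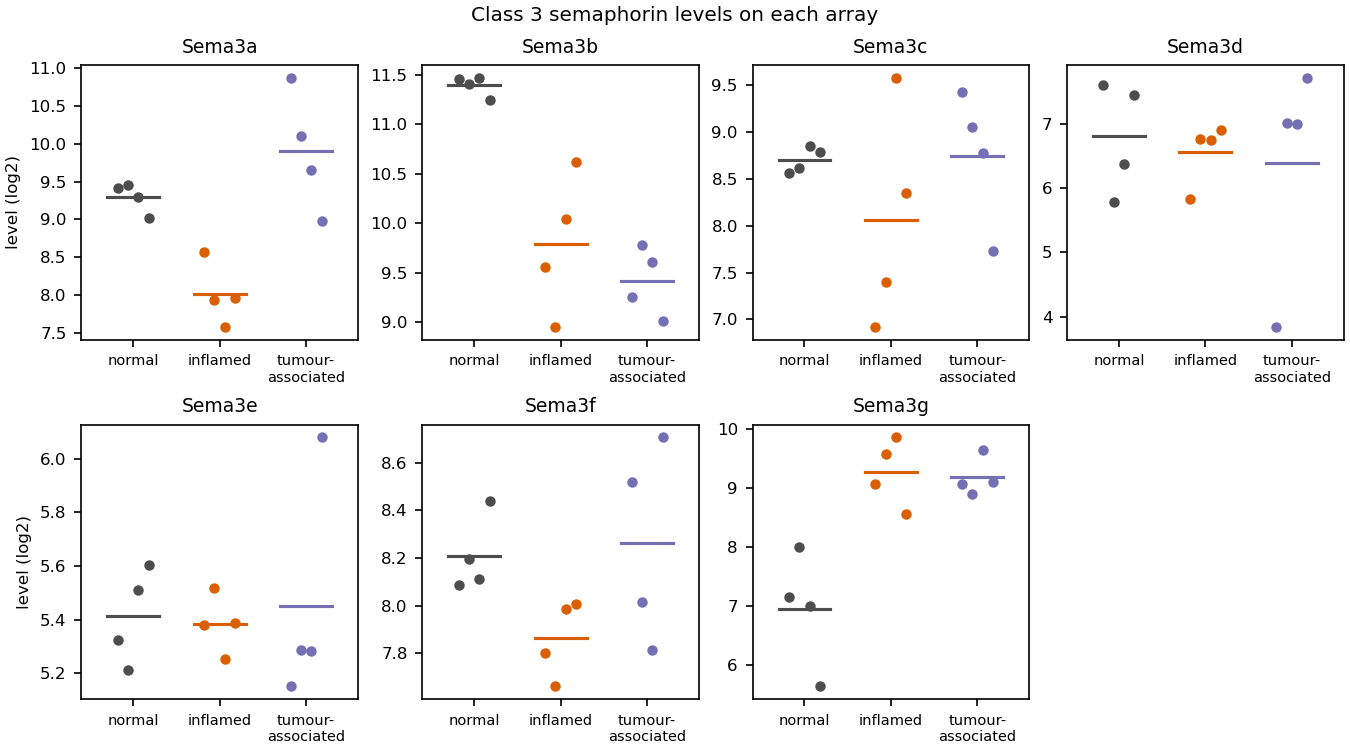
Log2 level (y axis, its range set for each panel) of Sema3a to Sema3g, one panel a gene, in the 4 normal, 4 inflamed and 4 tumour-associated arrays (x axis). Points are arrays and lines are group means. Sema3g sits between 5.63 and 8.0 in normal arrays and between 8.55 and 9.86 in the others, while Sema3b is above 11 in every normal array and below it elsewhere.

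Sema3b, a ligand known as a tumour suppressor in epithelial cancers, was lower in both transgenic groups. Its log2 levels (probe set 1448415_a_at) were 11.45, 11.41, 11.47 and 11.24 in normal arrays. They were 9.56, 8.95, 10.04 and 10.62 in inflamed arrays and 9.25, 9.78, 9.61 and 9.01 in tumour-associated arrays. No transgenic array reached the lowest normal array, and the normal arrays lay within a narrow band while the inflamed ones did not. In tumour-associated cells Sema3b fell by 1.98 ± 0.30 on the log2 scale (SE, 95% interval of the difference -2.63 to -1.33), or 3.94-fold, with an adjusted p of 0.0015 in the limma fit. In inflamed cells it fell by 1.60 ± 0.30 (-2.25 to -0.94), or 3.03-fold, with an adjusted p of 0.0431. The inflamed call was lost in 16 of 22 other settings, where the adjusted p ranged from 0.0198 to 0.233, and the cause was not tested. It was lost without any 1 of the normal arrays, of inflamed arrays 1 to 3 or of tumour-associated arrays 1 to 3, with differences from -1.87 to -1.32 over all single arrays left out. The tumour-associated call was kept in all 22, with an adjusted p of at most 0.0089. Between the transgenic groups the difference was -0.38 ± 0.30 (-1.03 to 0.27, adjusted p = 0.422), which does not show equal levels. Summed macrophage and pericyte markers, given above, were likewise higher in every normal array than in any transgenic array, and their part in the Sema3b values was not tested. Such a sum follows its brightest genes. Of the 8 pericyte markers, 5 were lower than normal in inflamed and 6 in tumour-associated cells. Of the 9 macrophage markers 8 and 5 were lower, and the rest of both lists were higher.

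The other Sema3b probe sets lay on the same side. In tumour-associated against normal cells, 1416644_a_at differed by -1.80 ± 0.33 (adjusted p = 0.00677 over the 45037 probe sets tested) and 1431795_a_at by -1.04 (adjusted p = 0.194). Against normal, the inflamed difference was -1.35 on both, with adjusted p of 0.116 and 0.204 by limma. In that fit over all probe sets the main Sema3b probe set had an adjusted p of 0.055 for the inflamed difference, just outside the threshold of 0.05. All 3 carry the name ending that marks possible matches to other transcripts of the gene or its family, so Sema3b has no value among probe sets without such matches.

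Sema3a, the ligand that binds Nrp1, was highest in tumour-associated and lowest in inflamed fibroblasts. Its log2 levels (probe set 1449865_at) were 9.42, 9.46, 9.30 and 9.01 in normal arrays. They were 8.57, 7.93, 7.58 and 7.96 in inflamed arrays and 10.87, 10.11, 9.65 and 8.98 in tumour-associated arrays. Every inflamed array was below every array of the other groups, and the tumour-associated arrays ran from the normal levels upward. Tumour-associated cells were higher than inflamed cells by 1.90 ± 0.34 (SE, 95% interval 1.16 to 2.64), a 3.72-fold rise, with an adjusted p of 0.00648 in the limma fit. This call was kept in 22 of 23 other settings and lost with the poly-A control level as a covariate, where the difference was 2.34 with an adjusted p of 0.0755. Probe set 1420417_at differed by 1.35 ± 0.33 (adjusted p = 0.0343) and 1420416_at by 1.16 (adjusted p = 0.06) in the fit over all probe sets.

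Against normal cells Sema3a passed in neither direction. The inflamed difference was -1.29 ± 0.34 (95% interval -2.03 to -0.55, adjusted p = 0.114 by limma), although the groups did not overlap. It passed in 3 of 23 other settings, for example without tumour-associated array 4 (adjusted p = 0.048) and with the arrays of the compared groups alone (0.0453), over a range of 0.0385 to 0.285. The tumour-associated difference was 0.61 ± 0.34 (-0.13 to 1.35, adjusted p = 0.329). The level of Sema3a in tumour-associated cells did not differ from normal beyond the spread.

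On their main probe sets, Sema3c, Sema3d, Sema3e and Sema3f passed the test in no comparison of the limma fit, and none of the 4 had an unadjusted p under 0.05 in any of the 3. Sema3c, a ligand that helps form the outflow tract of the heart, was 8.71 ± 0.14 in normal cells, 8.06 ± 1.18 in inflamed cells and 8.75 ± 0.73 in tumour-associated cells (log2 level, SD, n = 4). Its inflamed arrays ranged from 6.92 to 9.58, around the whole normal range of 8.56 to 8.85. Tumour-associated minus inflamed was 0.69 ± 0.50 (95% interval -0.41 to 1.78). Without the array of each group with the largest Gapdh difference, a setting chosen after seeing the data, Sema3c was higher in tumour-associated than in inflamed cells by 1.53 with an adjusted p of 0.0193. Its other probe set, 1420696_at, had means of 8.74, 8.02 and 7.78 in normal, inflamed and tumour-associated cells. It was thus lowest in the group where the main probe set was highest.

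Sema3f, a ligand that binds Nrp2, was 8.21 ± 0.16 in normal cells, 7.86 ± 0.16 in inflamed cells and 8.26 ± 0.42 in tumour-associated cells. Each inflamed array, at 7.66 to 8.01, was below the lowest normal array at 8.09. The inflamed difference on this main probe set was -0.34 ± 0.20 (95% interval -0.78 to 0.09), with an adjusted p of 0.419 by limma. On 1425840_a_at the means were 7.26, 6.58 and 7.13 in normal, inflamed and tumour-associated cells. There the inflamed arrays reached at most 6.73, below the lowest normal (7.13) and tumour-associated (6.81) arrays. On 1420508_at the means were 7.40, 6.95 and 7.35. Sema3d, another Nrp1-binding ligand, was 6.81 ± 0.87, 6.56 ± 0.49 and 6.40 ± 1.74 in normal, inflamed and tumour-associated cells, and tumour-associated array 1 stood lowest at 3.84. Sema3e, the ligand of Plxnd1, was dim in all 3 groups, at 5.41 ± 0.18, 5.38 ± 0.11 and 5.45 ± 0.43. The size of a difference between dim values depends on how background was corrected, a step the sources used here do not give.

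In tumour-associated cells the main probe sets of the 2 neuropilins had differences of opposite sign, and neither passed the test. Nrp1, the receptor of Sema3a, was 9.10 ± 0.39 in normal cells, 9.18 ± 0.62 in inflamed cells and 9.75 ± 0.34 in tumour-associated cells (log2 level, SD, n = 4). Its arrays read 9.14, 9.03, 9.59 and 8.64 in normal, 9.34, 9.58, 8.27 and 9.55 in inflamed, and 10.16, 9.60, 9.88 and 9.37 in tumour-associated skin. The groups overlapped, with the tumour-associated arrays toward the top. Tumour-associated against normal gave 0.65 ± 0.30 (SE, 95% interval -0.01 to 1.31, adjusted p = 0.23 by limma), and against inflamed 0.57 ± 0.30 (-0.09 to 1.23, adjusted p = 0.248). The inflamed difference against normal was 0.08 ± 0.30 (adjusted p = 0.907). A shift of each array by its ribosomal protein genes, which moves every gene by the same amount and the median of all genes from 0.04 to 0.25 and from 0.12 to 0.51, put Nrp1 at 0.86 (adjusted p = 0.0475) and 0.96 (adjusted p = 0.0271). Relative to the other genes Nrp1 was where it had been. Its other 3 probe sets differed by 1.28, 1.06 and 0.44 between tumour-associated and normal cells, and none of them passed.

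Nrp2, the receptor for Sema3f and Sema3g, was lower in tumour-associated cells on all 4 of its probe sets, and 2 of these passed the test. The main one, 1435349_at, read 10.20, 9.94, 10.35 and 9.16 in normal, 10.20, 10.44, 9.05 and 9.89 in inflamed, and 9.24, 9.08, 8.90 and 9.21 in tumour-associated arrays. Normal array 4 and inflamed array 3 were as low as the tumour-associated arrays, which were close together. Tumour-associated against normal was -0.80 ± 0.31 (SE, 95% interval -1.47 to -0.13), with an adjusted p of 0.137 by limma. Against inflamed it was -0.79 ± 0.31 (-1.46 to -0.11), with an adjusted p of 0.135. Without normal array 4 the first became -1.05 (adjusted p = 0.0411), and without inflamed array 3 the second became -1.07 (adjusted p = 0.0379). Those are the normal and inflamed arrays with the largest Gapdh difference. Without the array of largest Gapdh difference in every group, the Nrp2 differences were -1.09 (adjusted p = 0.00504) and -1.10 (adjusted p = 0.00567).

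On the Nrp2 probe set 1456778_at the separation was wider. It read 8.97, 8.92, 9.27 and 9.28 in normal, 8.89, 9.29, 7.91 and 8.88 in inflamed, and 6.35, 7.39, 7.57 and 6.04 in tumour-associated arrays. No tumour-associated array reached any array of the other groups. The level fell by 2.27 ± 0.36 against normal (adjusted p = 0.00274) and by 1.91 ± 0.36 against inflamed (adjusted p = 0.0114) in the limma fit over all probe sets. On 1426528_at it fell by 1.57 ± 0.28 (adjusted p = 0.00534) and by 1.35 ± 0.28 (adjusted p = 0.0172). The fourth, 1447343_at, gave -0.69 (adjusted p = 0.203) and -0.74 (adjusted p = 0.154). With the mean of its 4 probe sets as the value of the gene, Nrp2 passed against normal at -1.33 (adjusted p = 0.0036) and against inflamed at -1.19 (adjusted p = 0.00996). The inflamed difference against normal was -0.02 ± 0.31 on the main probe set (95% interval -0.70 to 0.66, adjusted p = 0.983). Summed pericyte and dermal papilla markers, given above, also had their lowest values in tumour-associated arrays, and their part in the Nrp2 values was not tested. By gene, 6 of 8 pericyte markers were lower there than in normal and 5 lower than in inflamed cells. Of 10 dermal papilla markers 9 and 10 were lower.

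**Figure D2:**
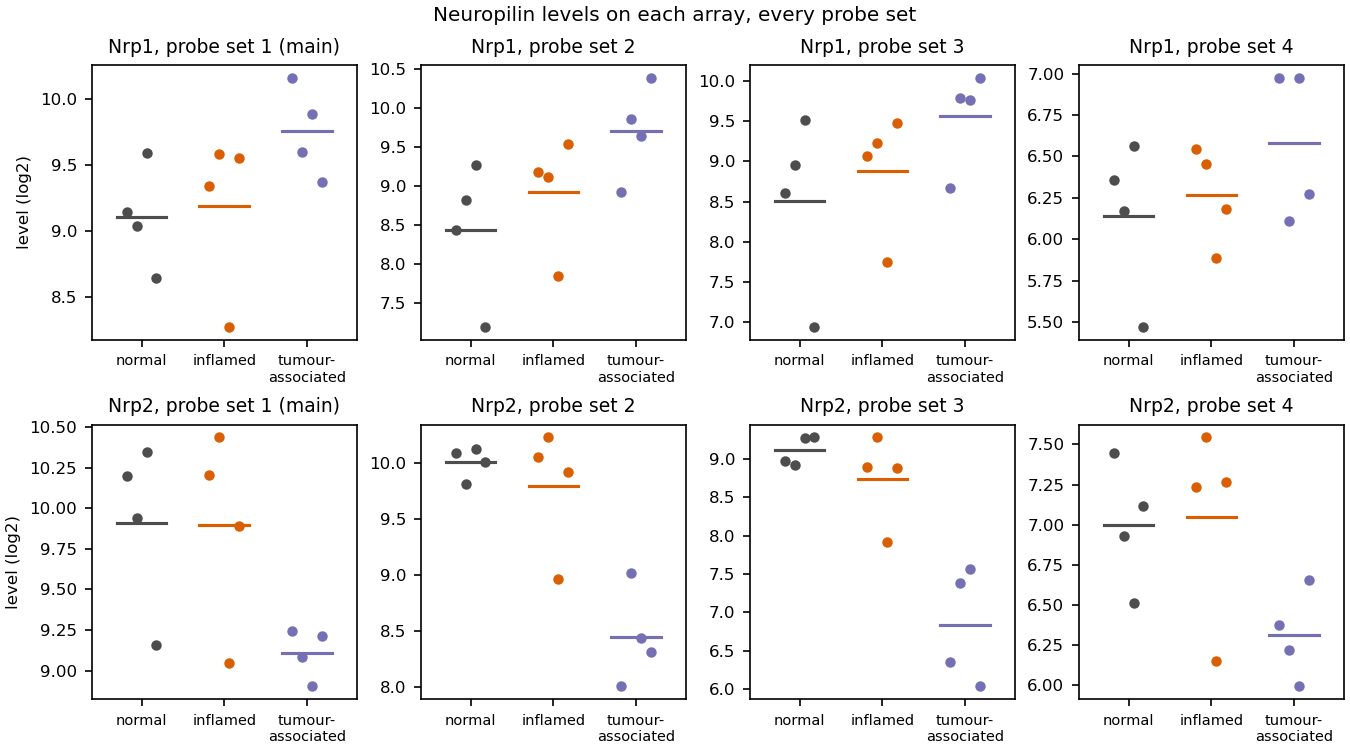
Log2 level (y axis, its range set for each panel) of each Nrp1 and Nrp2 probe set in the 12 arrays, by group (x axis). Points are arrays and lines are group means. On Nrp2 probe set 3, which is 1456778_at, the tumour-associated arrays lie between 6.04 and 7.57 and all other arrays at 7.91 or above, while on the main Nrp2 probe set the groups overlap.

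**Figure D3:**
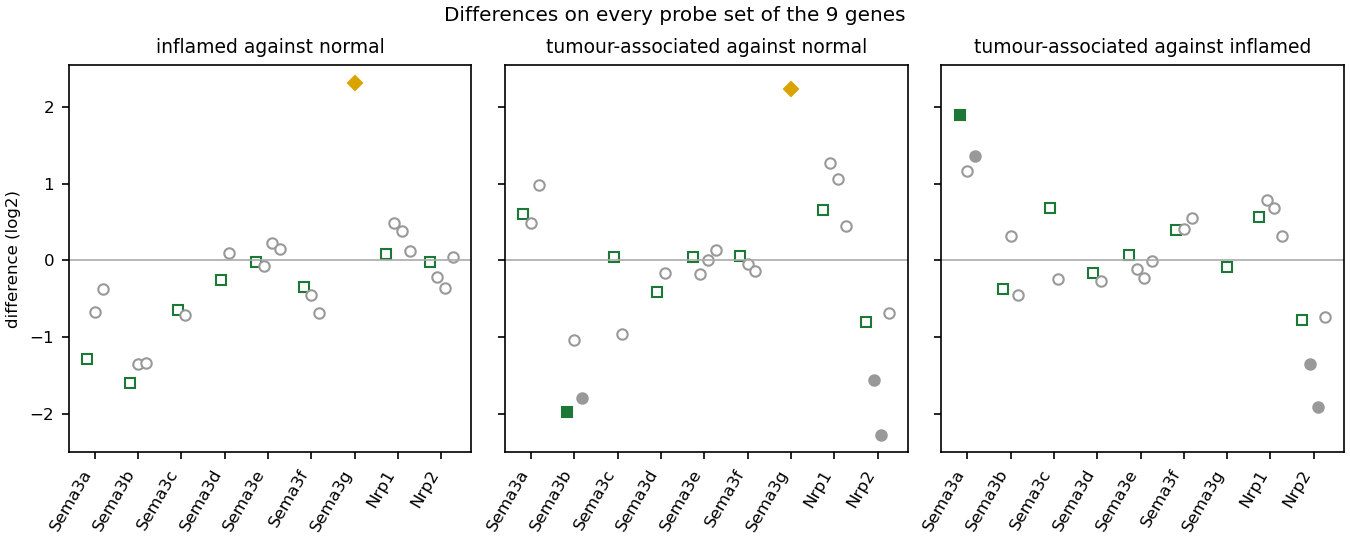
Log2 difference (y axis) of each of the 26 probe sets, by gene (x axis), with a panel for each of the 3 comparisons, from the fit over all 45037 probe sets. Green squares are main probe sets, grey circles the others, filled where the adjusted p was under 0.05, and gold diamonds mark Sema3g against normal, which has no test. All 4 Nrp2 probe sets lie below 0 in both comparisons of tumour-associated cells.

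Among the 8 genes other than Sema3g, 1 passed in inflamed against normal cells (Sema3b, lower), 1 in tumour-associated against normal (Sema3b, lower) and 1 in tumour-associated against inflamed (Sema3a, higher). Of all genes tested, 0.533% passed in the first comparison, 0.258% higher and 0.275% lower. In the second 9.65% passed, 4.85% higher and 4.8% lower. In the third 6.71% passed, 3.67% higher and 3.04% lower. Counting Sema3g, the groups did not overlap for 4, 2 and 1 of the 9 genes, against 15.3%, 13.8% and 21.1% of all genes. Sema3g is among the 4 and the 2 through the values that chose it, so these counts are no test. The others were Sema3a, Sema3b and Sema3f in the first comparison and Sema3b in the second, and the third held Sema3a. The median difference of the 9 genes, Sema3g included, was -0.25, 0.04 and 0.07 on the log2 scale, beside -0.09, 0.04 and 0.12 over all genes. Sema3g took part in the choice of the set, so its values in the comparisons against normal say nothing about the other genes. Both comparisons against normal use the same 4 normal arrays.

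**Figure D4:**
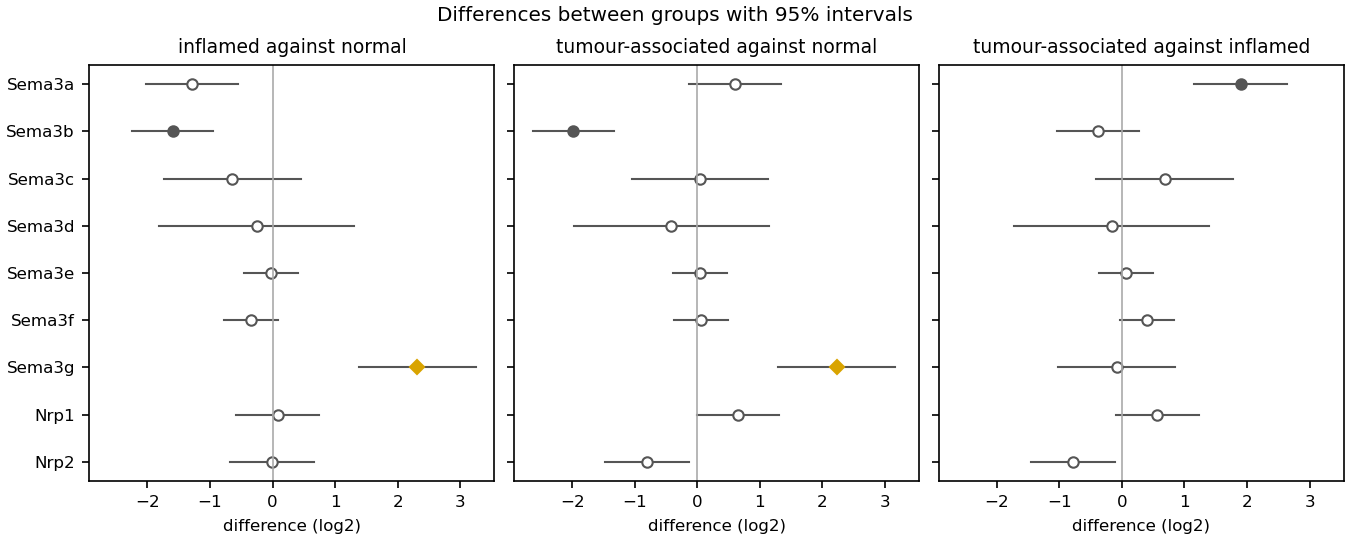
Log2 difference (x axis) of each of the 9 genes in the 3 comparisons, with 95% intervals as bars. Filled points passed at an adjusted p under 0.05, open points did not, and gold diamonds mark Sema3g against normal, which has no test. Sema3b lies at -1.60 and -1.98 against normal, and Sema3a at 1.90 between the transgenic groups.

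Of the 9 plexins, which carry the signal into the cell, 1 passed the test. None passed by limma in inflamed against normal cells, and none had an unadjusted p under 0.05 there. In both comparisons of tumour-associated cells Plxna1 passed, a partner of neuropilins in the semaphorin receptor. Of all genes, 9.65% passed against normal and 6.71% against inflamed. In those comparisons 6 and 3 plexins had an unadjusted p under 0.05 against normal and inflamed, beside 4075 and 4816 of all 18193 genes. Plxna1 was 10.14 ± 0.45 in normal cells, 9.97 ± 0.30 in inflamed cells and 10.96 ± 0.25 in tumour-associated cells (log2 level, SD, n = 4). It rose by 0.98 ± 0.24 against inflamed (adjusted p = 0.0291), with no overlap, and by 0.81 ± 0.24 against normal (adjusted p = 0.0495), where the groups overlapped. These calls were lost in 9 and 17 of 23 other settings, with adjusted p up to 0.575 and 0.142, and its other probe set differed by 0.18 and 0.06. Each was lost without inflamed array 1, 2 or 4 or tumour-associated array 1, 3 or 4, and that against normal also without normal array 1, 2 or 3.

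The remaining plexins are given by value. Plxna4, a Sema3a receptor, differed by 0.98 in tumour-associated against normal cells (adjusted p = 0.142) and by 1.25 against inflamed (adjusted p = 0.0718). Its other probe set, 1457840_at, passed in both at 2.06 ± 0.33 (adjusted p = 0.00273) and 2.03 (adjusted p = 0.00477) in the fit over all probe sets. Plxnd1, the receptor of Sema3e, was 8.61 ± 0.19, 8.41 ± 0.21 and 8.04 ± 0.34 in normal, inflamed and tumour-associated cells, and its difference of -0.58 against normal missed the threshold (adjusted p = 0.0797). Plxna3 did likewise at -0.72 (adjusted p = 0.0809). Plxnc1, the receptor of Sema7a, was dim in all groups and differed by 1.05 (adjusted p = 0.0535). Plxna2, Plxnb1, Plxnb2 and Plxnb3 differed from normal by -0.39, 0.06, 0.40 and -0.04 in tumour-associated cells and by -0.41, -0.14, 0.31 and -0.12 in inflamed cells.

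Downstream of the receptors, 8 of 22 measured signalling and co-receptor genes passed in tumour-associated against normal cells, 3 higher and 5 lower, beside 4.85% and 4.8% of all genes. The median difference of the 22 was -0.11, beside 0.04 over all genes. In tumour-associated against inflamed cells 1 passed upward and 1 downward, beside 3.67% and 3.04% of all genes. In inflamed against normal cells none passed by limma, and 5 had an unadjusted p under 0.05, beside 2837 of all 18193 genes. The largest of these rises was that of Mical2, an enzyme that oxidises actin, from 7.52 ± 0.62 in normal and 8.0 ± 0.14 in inflamed to 11.31 ± 0.62 in tumour-associated cells. Its tumour-associated arrays lay between 10.80 and 12.20, far above the highest other array at 8.27. Mical2 rose by 3.78 ± 0.33 against normal (13.8-fold, adjusted p = 3.0e-05) and by 3.30 ± 0.33 against inflamed (adjusted p = 1.5e-04).

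Its relative Mical1, which binds plexins of the A class, went the other way. Mical1 was 11.41 ± 0.57 in normal cells, 10.31 ± 0.31 in inflamed cells and 8.88 ± 0.73 in tumour-associated cells. It fell by 2.53 ± 0.36 against normal (adjusted p = 0.00103) and by 1.43 ± 0.36 against inflamed (adjusted p = 0.035). The second call was lost in 11 of 23 other settings (adjusted p up to 0.39), among them without any 1 inflamed array or without tumour-associated array 1. Mical3 fell by 0.87 ± 0.20 against normal (adjusted p = 0.0193 by limma), a call lost in 5 of 23 other settings (adjusted p up to 0.149), among them without normal or tumour-associated array 2. Fyn, a Src-family kinase in the Sema3a response, went from 11.59 ± 0.24 in normal to 9.66 ± 0.61 in tumour-associated cells, where it fell by 1.93 ± 0.29 (adjusted p = 0.00146). On its other probe set the means were 10.28 and 8.98, and the groups overlapped. Of the adhesion molecules that join neuropilin complexes, L1cam also fell against normal by 1.40 ± 0.37 (adjusted p = 0.0319), with a difference of -0.10 on its other probe set. That call was lost in 8 of 23 other settings (adjusted p up to 0.0849), among them without normal array 1 or 3 or tumour-associated array 1, 3 or 4. Nrcam, of the same family, fell by 2.26 ± 0.48 (adjusted p = 0.0107). On its other probe sets the mean went from 7.77 in normal to 6.02 in tumour-associated cells, from 6.81 to 6.49 with overlap, and from 2.67 to 2.43, which is dim. Against normal, Dpysl3, of the collapsin response mediator family, rose by 2.20 ± 0.40 (adjusted p = 0.00441), and Cfl1, the actin-severing protein cofilin, by 0.86 ± 0.15 (adjusted p = 0.00429). On the other Dpysl3 probe sets the mean went from 9.11 in normal to 10.55 in tumour-associated cells, and from 7.24 to 7.95 with overlap.

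**Figure D5:**
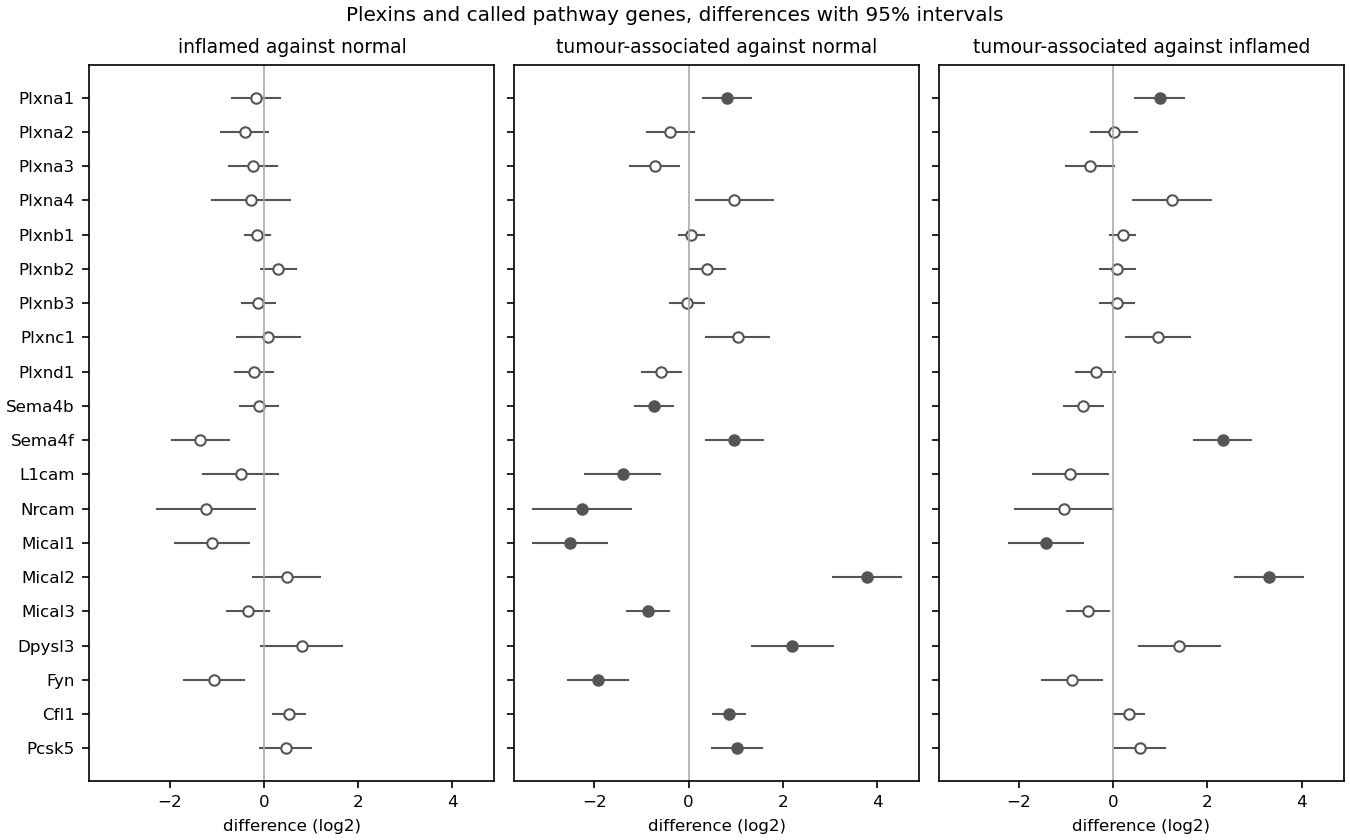
Log2 difference (x axis) in the 3 comparisons of the plexins and of the pathway genes that passed in a comparison, with 95% intervals as bars. Filled points passed at an adjusted p under 0.05 and open points did not. Mical2 lies at 3.78 and Mical1 at -2.53 in tumour-associated against normal cells.

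Semaphorins of other classes, which are mostly bound to the membrane, were counted on their main probe sets. Of these 13 genes, 2 passed in tumour-associated against normal cells, 1 in each direction, beside 9.65% of all genes. Sema4b fell by 0.73 ± 0.19 (adjusted p = 0.0283 by limma), a call lost in 9 of 23 other settings (adjusted p up to 0.234), among them without normal array 1 or 3 or tumour-associated array 1 or 2. Sema4f was 7.65 ± 0.34 in normal cells, 6.30 ± 0.34 in inflamed cells and 8.62 ± 0.56 in tumour-associated cells (log2 level, SD, n = 4). It rose by 2.32 ± 0.28 against inflamed (adjusted p = 5.3e-04), where the groups did not overlap, and by 0.97 ± 0.28 against normal (adjusted p = 0.0487), a call lost in 20 of 23 other settings (adjusted p up to 0.176), among them without any 1 array but tumour-associated array 3. Its inflamed difference against normal was -1.35 (adjusted p = 0.0616). Like Sema3a, it had its lowest mean in inflamed and its highest in tumour-associated cells. None of the 13 passed in inflamed against normal cells, and 5 had an unadjusted p under 0.05, beside 2837 of all 18193 genes. Their other probe sets were not counted, and some moved. In normal, inflamed and tumour-associated cells Sema7a had means of 5.84, 6.18 and 6.99 on 1422040_at, and Sema5a 7.47, 8.74 and 9.55 on 1437422_at. Downward went Sema6a on 1425903_at, at 8.66, 8.10 and 7.24. These were named after their values were seen.

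Among 4 proprotein convertases, the proteases that cleave class 3 semaphorins, Pcsk5 rose by 1.03 ± 0.25 in tumour-associated against normal cells (adjusted p = 0.021 by limma), a call lost in 3 of 23 other settings (adjusted p up to 0.0593), among them without normal or tumour-associated array 3. None passed in the other comparisons, where 1 and 2 had an unadjusted p under 0.05 for inflamed against normal and tumour-associated against inflamed. Of 9 VEGF ligands and receptors, which share the neuropilins, none passed in any comparison, and 0, 0 and 1 had an unadjusted p under 0.05. Vegfa was 8.91 ± 0.32, 9.07 ± 0.30 and 8.95 ± 0.84 in normal, inflamed and tumour-associated cells, although another of its probe sets fell by 1.20 ± 0.22 against inflamed (adjusted p = 0.00837 over all probe sets). Over all 57 measured pathway genes 0 passed in inflamed against normal cells, with 11 at an unadjusted p under 0.05. Of all 18193 genes, 2837 had such a p there. In tumour-associated cells 4075 had it against normal and 4816 against inflamed. In tumour-associated against normal cells 12 passed, 6 in each direction, beside 9.65% of all genes, and in tumour-associated against inflamed 4 passed, beside 6.71%.

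The genes whose levels ran most like those of Sema3g over the 12 arrays were Grsf1, Jag1, Cbfb, Bex3 and Srp14, with Pearson r of 0.94, 0.929, 0.928, 0.926 and 0.923. Jag1, a Notch ligand, was 8.64 ± 0.67 in normal cells, 10.49 ± 0.43 in inflamed cells and 9.85 ± 0.12 in tumour-associated cells (log2 level, SD, n = 4). Grsf1, an RNA-binding protein, was 8.24 ± 0.80, 9.59 ± 0.44 and 9.80 ± 0.40 in the same order. The most opposed genes were Slc7a15 (r = -0.956), Sh3bp2 (r = -0.944) and Itgb1bp1 (r = -0.939). Itgb1bp1, which binds the tail of an integrin, was 10.37 ± 0.27, 9.25 ± 0.22 and 9.41 ± 0.10. The points share 12 libraries in 3 groups, so r holds the differences between groups as well as the spread within them.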

How the data were processed

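RNA of 12 sorted fibroblast samples was measured on Affymetrix arrays after 1 round of NuGEN Pico amplification, per the labels' protocols. Deposited were log2 values, 1 per probe set and array, from 2.08 to 14.96. The submitters' processing notes name limma without a version. The method of summary, background correction and normalization is not given in the sources used here. Because quartiles differed between arrays by up to 0.28, over a limit of 0.1, arrays were quantile normalized. Of 45101 probe sets, 64 controls were left out of all tests, 34945 had 1 gene symbol, 932 several and 9160 none. Probe sets with several symbols named no gene, and some genes of the lists are not analysed here. Each of 18193 genes took its probe set of highest mean, 9010 having several. All 12 arrays entered 1 linear model of 3 group means, with lmFit and eBayes of limma 3.58.1 in R 4.3.3, two-sided, with Benjamini-Hochberg adjustment over all genes and a threshold of 0.05. A second fit took all 45037 probe sets. The code was checked on simulated data. Correlations between arrays of a group were 0.892 to 0.987, and no pair shared more than 0.253% of identical values. The number of arrays limits the precision.

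The genes and lists were chosen with earlier results of these data known. Always named are the 9 genes, the plexins, Vegfa, Pdgfra, Col1a1, Pecam1 and Cdh5. Pathway genes called in a comparison are also named, at most 8 per list and comparison, and so are the 5 genes most like Sema3g and the 3 most opposed. Other lists were markers. Col1a1 stood at 14.45, 14.30 and 14.48 in normal, inflamed and tumour-associated cells. Lymphatic endothelial, Schwann cell, melanocyte, T cell and adipocyte markers had no gene that passed. In the comparisons of inflamed with normal, tumour-associated with normal and tumour-associated with inflamed cells, pericyte markers had 1, 2 and 3 lower of 8, macrophage markers 0, 1 and 0 lower of 9, and dermal papilla markers 0, 2 and 9 lower of 10, with all 10 higher in the first at an unadjusted p under 0.05. Keratinocyte markers had 2 higher, 2 higher and 1 lower of 10. Of all genes, 0.275%, 4.8% and 3.04% passed as lower and 0.258%, 4.85% and 3.67% as higher in these comparisons.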

Additional observations from a re-analysis of the deposited data

Results flagged for a closer look

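Within each group of 4 arrays the 9 genes were searched for an array that stood far from the others, 27 groups in all, of which chance picks about 1 in 20. Sema3d was 5.83 in inflamed array 1, below the other inflamed arrays at 6.74 to 6.91, and this gap was 0.848 of the range of the group. Sema3e was 6.08 in tumour-associated array 4, above the other tumour-associated arrays at 5.15 to 5.29, and this gap was 0.855 of the range. Both levels are under the dim limit.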

How the results depend on the processing

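Sema3g was chosen by the comparisons against normal and is left out of the counts given here. The other 8 genes alone gave 1 call in each comparison. Over all other settings they gave 0 to 2 in inflamed against normal, 0 to 2 in tumour-associated against normal and 0 to 3 in tumour-associated against inflamed. The first count was 0 in 16 settings, with 1 to 3 genes at an unadjusted p under 0.05 by limma, the second in 1 and the third in 1. For the first and second counts these include the setting without cross-matching, where Sema3b had no value and could not be called. No called difference changed sign. The 57 pathway genes gave 0 calls in inflamed against normal, 12 in tumour-associated against normal and 4 in tumour-associated against inflamed. In inflamed against normal the 8 genes gave 2 calls after the ribosomal shift and 1 with the 2 compared groups alone. That 1 call was Sema3a, and the Sema3b call of the main fit was lost there. They gave 0 with values as deposited, with probe sets without cross-matching and with the poly-A level as covariate. Without cross-matching only 7 of the 8 genes had a value, and Sema3b was not among them. The 8 genes also gave 0 at an adjusted p under 0.01 and without the arrays of largest Gapdh difference (chosen after seeing the data). In the order of these settings without a call, 2, 1, 2, 2 and 3 genes had an unadjusted p under 0.05 by limma. In tumour-associated against normal the 7 genes with a value gave 0 without cross-matching (1 at an unadjusted p under 0.05). Sema3b, the gene called in the main fit, had no value there, so its call could not be kept. The 8 genes gave 2 after the ribosomal shift, 2 with mean probe sets and 2 without the Gapdh arrays. In tumour-associated against inflamed they gave 2 after a shift by 46 ribosomal protein genes, 2 with mean probe sets, 0 with the poly-A covariate (2 at an unadjusted p under 0.05) and 3 without the Gapdh arrays. Pathway genes gave 1 in inflamed against normal after the ribosomal shift, 1 without dim genes and 1 with the compared groups alone. They gave 5 in tumour-associated against normal at an adjusted p under 0.01. In tumour-associated against inflamed they gave 13 after the ribosomal shift, 1 with the poly-A covariate, 2 at an adjusted p under 0.01 and 7 without the Gapdh arrays. Leaving out 1 array gave 0 to 2, 1 to 2 and 1 to 2 calls for the 8 genes, and 0 to 2, 7 to 13 and 2 to 5 for pathway genes. The causes were not tested. The ribosomal shift moved the median of all genes from -0.09 to -0.28, from 0.04 to 0.25 and from 0.12 to 0.51, and the share of higher calls from 48.5% to 27.9%, from 50.3% to 69.5% and from 54.7% to 90.6%.

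Replicate numbers gave little sign of pairing across genes: of 12 correlations of deviations, from -0.09 to 0.18, only 2 were over 0.1. Both were between normal and tumour-associated arrays, at 0.16 and 0.18 in replicates 3 and 4. The poly-A control averages also ran alike by replicate in these groups. They were 10.33, 10.22, 9.24 and 12.24 in normal and 10.98, 10.56, 9.78 and 12.50 in tumour-associated arrays. Whether arrays of the same number were processed together was not tested. With the replicate block the 8 genes other than Sema3g gave 0, 1 and 1 calls and pathway genes 0, 10 and 3. Dim signals limit Sema3e most.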
